A study of Mus musculus with 10 samples.

Results

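The genes described here encode enzymes of cholesterol synthesis and the proteins that control sterol levels. They were taken from a list of 31 genes, and a gene counted as measured when a probe set of the array carried its symbol and no other. Of the 31 genes, 28 were measured, out of 19937 named genes on the array. Acat2, Nr1h2 and Soat1 had no such probe set. The list holds 6 measured genes of the mevalonate steps, 11 of the sterol branch, 5 of the SREBP control, 4 for the LXR receptor and its efflux targets, and 2 for sterol transfer and oxysterol synthesis. It does not cover every step of the pathway.

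Cholesterol is built from acetyl-CoA through mevalonate, isoprenoids, squalene and lanosterol. When sterols in the endoplasmic reticulum are low, SCAP carries the SREBP factors to the Golgi, where they are cut free and switch on the synthesis genes, whereas the INSIG proteins hold SCAP back when sterols are high. When oxysterols accumulate, LXR turns on ABCA1 and ABCG1, which export cholesterol, and MYLIP (also known as IDOL), which marks lipoprotein receptors for degradation. In macrophages this balance is known to shift during inflammatory activation.

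The data are 10 Affymetrix Mouse Gene 1.0 ST arrays of cells cultured from mouse bone marrow (BM) of the strain labelled C57BL6/N. Each of 5 settings was measured on 1 array from wild-type (B6) mice and 1 array from Slpi-/- mice, which lack the secretory leukoprotease inhibitor SLPI. The settings were BM-derived basophils (BMBs, grown with IL-3 and isolated as c-kit- DX5+ cells), BMBs loaded with anti-TNP-IgE (1 h) before 12 h with the antigen TNP-OVA, mast cells grown for weeks with IL-3, BM-derived eosinophils (BMEos, grown with SCF and Flt3 ligand and then IL-5), and BMEos given lipopolysaccharide (LPS) for 3 h. All cultures contained fetal calf serum, and the labels do not say how many mice or cultures stand behind an array. With 1 array per condition, the genotypes served as the pairs of each comparison, so that p-values measure only the spread between these arrays, which may be technical. All values are log2 signals, and a difference of 1 is a 2-fold change of signal. The background of each array was set at the 95th percentile of its 1027 olfactory receptor genes, and lay between 5.56 and 5.78.

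The labelled cell types each carried transcripts typical of them. Mcpt8, a basophil protease, read 12.72 to 13.29 in BMBs and at most 5.58 elsewhere. Cma1, a mast cell chymase, read 11.99 and 12.19 in mast cells, and Prg2, an eosinophil granule protein, read 12.02 to 12.35 in BMEos. The marker lists were not exclusive. Of 6 basophil markers, 5 were higher in BMBs than in mast cells (limma adjusted p under 0.05), as were 18.8% of all genes. Fcer1a was lower, at 11.43 and 11.47 in unstimulated BMBs against 12.16 and 12.24 in mast cells. Of 6 mast cell markers, 5 were lower in BMBs, as were 17.9% of all genes. Cpa3 still read 12.94 on both unstimulated BMB arrays, and Mcpt4 only 4.71 and 5.97 in mast cells. Mcpt8 and Mcpt4 entered the test of BMBs against mast cells only through arrays of the cell type where they are high, so that their calls are no support. Slpi itself read 11.42 and 11.33 on the B6 BMB arrays and 6.55 and 6.35 on the Slpi-/- BMB arrays, and 8.08 and 7.96 against 6.41 and 5.93 in BMEos. In mast cells it was 6.53 and 6.47. Transcripts of other lists were also present. All 4 measured megakaryocyte markers were above background on every BMB array. The median of that list was 8.88 on the B6 array with IgE against 10.43 to 10.78 on the other BMB arrays. On BMEos arrays 3 or 4 of these markers were above background, and in mast cells 2, with Itga2b at 11.47 and 11.55. Of 6 neutrophil markers, 4 and 3 were above background in unstimulated BMBs, with Ly6g at 12.38 and 12.68. In unstimulated BMEos it was 5 on both arrays, with Ngp at 11.18 and 10.51. Of 8 macrophage and dendritic cell markers it was 6 and 5 in unstimulated BMBs, with Adgre1 at 11.33 and 10.82. Both LPS arrays differed from the other 8 in sex-linked genes, with Xist at 9.72 and 9.66 against at most 4.90, and the Y-linked Eif2s3y at 3.22 and 3.54 against at least 7.62. In these bulk samples, fewer cells of a type and less RNA per cell cannot be told apart.

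Of the 28 genes, 24 were above background on all 10 arrays. Abca1 was above it on 9, Nr1h3 on 4, Pmvk on 2 and Ch25h on 1. The widest ranges over the arrays belonged to Insig1 (6.73 to 9.34) and Lss (6.85 to 9.27), and Pmvk moved least (5.34 to 5.69). The plot of all members by array shows blocks of like colour for most synthesis genes in BMBs and a separate pattern for Abca1, Abcg1 and Mylip.

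**Figure D1:**
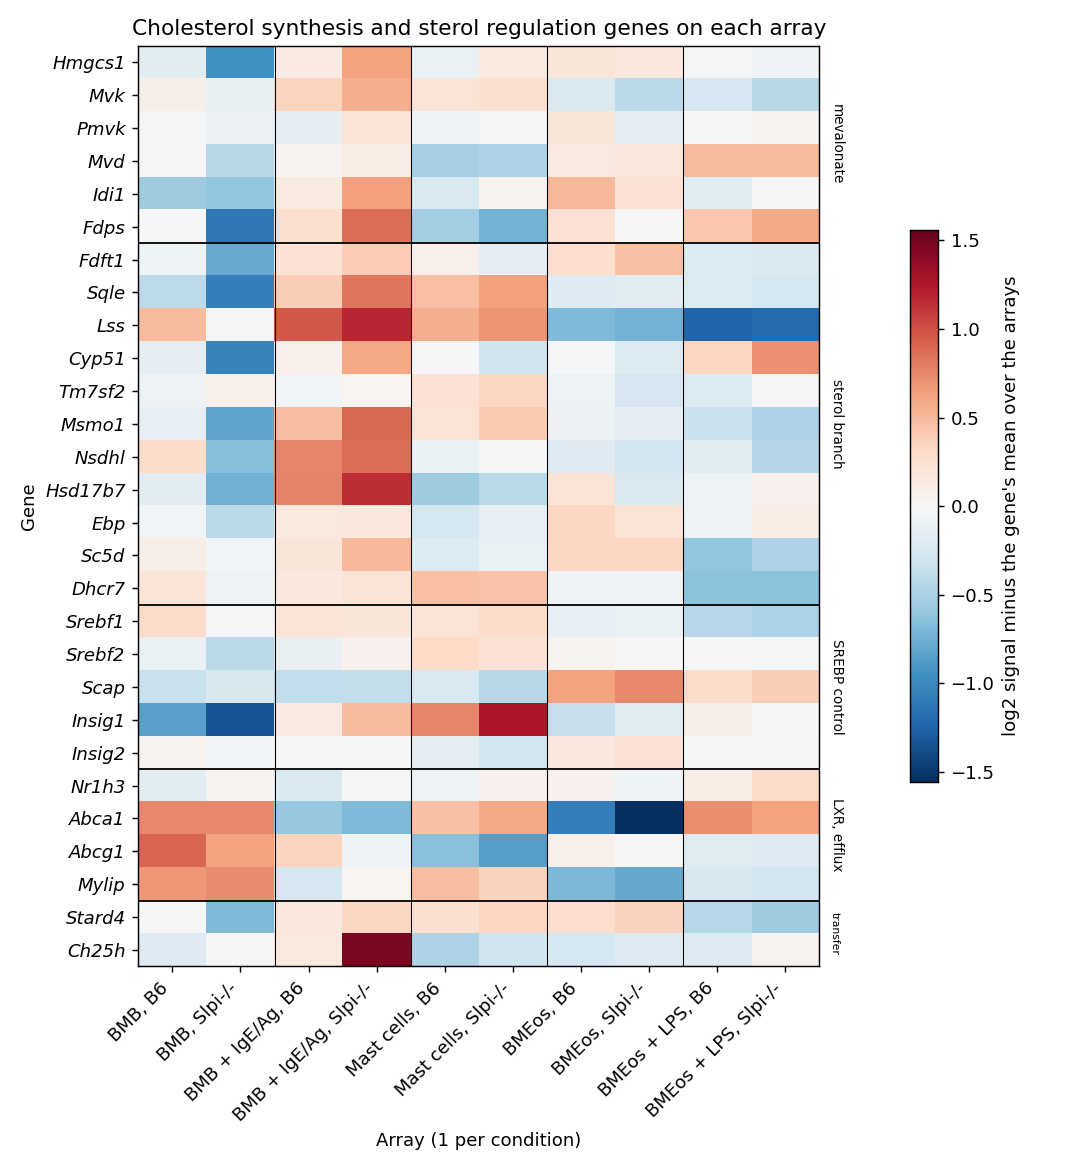
Log2 signal of the 28 measured genes (rows, grouped by role) on the 10 arrays (columns), as the difference from each gene's mean over the arrays; red is above and blue below that mean. The unstimulated Slpi-/- BMB array is the lowest of the 10 for 10 of the 17 synthesis genes, and the Slpi-/- BMB array with IgE and antigen is the highest for 11; over the 13571 genes tested these arrays are lowest for 8.56% and highest for 9.31%.

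Promoter windows were searched for motifs at the starts of the genes. Windows from 250 bases before to 50 after the annotated start (RefSeq, GRCm38.p6) were found for 23 of the 28 genes, in 32 windows; Fdps, Fdft1, Sqle, Abcg1 and Stard4 had none. Searched on both strands were CCAAT, the box bound by NF-Y, which is known to act beside SREBP, and TCACNCCAC, a form of the sterol response element; in the windows shown, no match of the first overlapped a match of the second. CCAAT lay in 14 of the 17 windows of synthesis genes (82.4%) and in 37.4% of all 32851 windows in the table. Counted by gene, 14 of 14 synthesis genes with a window held it in at least 1 window, against 41.1% of 27025 genes. It was not particular to them: 4 of 5 SREBP control genes held it, and 19 of all 23 genes with a window. TCACNCCAC was found once, in Hmgcs1, with its first base at position -137 from the start, and in 1.24% of all windows. A match describes letters in a window and says nothing about binding. Shown are Hmgcs1, which has both motifs (chr13:119690101-119690400, plus strand), Idi1 (chr13:8885356-8885655, plus strand), Msmo1 (chr8:64733529-64733828, minus strand) and Hsd17b7 (chr1:169969156-169969455, minus strand), which rose with IgE and antigen, and Abca1 (chr4:53159846-53160145, minus strand), which fell and has neither motif. Mylip, which also fell, has 3 CCAAT matches, and Tm7sf2 and Dhcr7, which did not pass the test with IgE, hold CCAAT as well. Each runs 5′ to 3′ on the strand of the gene, and capitals mark the matches on either strand.
Hmgcs1: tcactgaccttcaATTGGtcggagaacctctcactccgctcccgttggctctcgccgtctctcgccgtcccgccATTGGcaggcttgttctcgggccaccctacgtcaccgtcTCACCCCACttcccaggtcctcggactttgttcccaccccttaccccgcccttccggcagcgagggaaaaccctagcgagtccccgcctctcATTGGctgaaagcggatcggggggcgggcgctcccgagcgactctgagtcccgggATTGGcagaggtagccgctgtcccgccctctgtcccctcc
Idi1: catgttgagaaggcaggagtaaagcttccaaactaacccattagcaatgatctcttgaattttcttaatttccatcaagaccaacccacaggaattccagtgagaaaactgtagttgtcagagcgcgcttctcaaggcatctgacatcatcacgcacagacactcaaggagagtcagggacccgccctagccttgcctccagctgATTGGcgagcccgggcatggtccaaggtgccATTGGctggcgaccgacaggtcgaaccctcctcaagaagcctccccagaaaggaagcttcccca
Msmo1: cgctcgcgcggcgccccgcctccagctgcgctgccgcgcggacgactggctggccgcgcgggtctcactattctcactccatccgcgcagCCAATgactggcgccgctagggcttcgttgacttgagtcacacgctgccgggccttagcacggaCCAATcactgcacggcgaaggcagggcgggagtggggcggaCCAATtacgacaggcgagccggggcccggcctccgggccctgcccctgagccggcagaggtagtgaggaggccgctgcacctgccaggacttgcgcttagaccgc
Hsd17b7: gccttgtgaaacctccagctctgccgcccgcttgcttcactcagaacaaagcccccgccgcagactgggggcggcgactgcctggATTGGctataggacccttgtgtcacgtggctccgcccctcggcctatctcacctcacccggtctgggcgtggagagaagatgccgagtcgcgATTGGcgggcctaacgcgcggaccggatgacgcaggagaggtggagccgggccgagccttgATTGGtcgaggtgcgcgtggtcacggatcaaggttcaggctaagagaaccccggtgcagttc
Abca1: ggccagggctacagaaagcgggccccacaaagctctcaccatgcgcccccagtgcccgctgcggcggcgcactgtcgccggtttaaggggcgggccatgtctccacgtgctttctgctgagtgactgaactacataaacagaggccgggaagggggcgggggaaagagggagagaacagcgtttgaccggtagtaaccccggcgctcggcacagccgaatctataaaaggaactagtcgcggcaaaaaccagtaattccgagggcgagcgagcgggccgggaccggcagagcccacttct

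The first question was how the pathway responded when BMBs were activated through IgE. After IgE and antigen, 11 of the 28 genes were higher and 3 were lower, where a gene counts as changed at a limma adjusted p under 0.05. Over all 13571 genes tested, 12.2% were higher and 10.6% lower. The median difference of the 28 genes was 0.43, and that of all genes tested was -0.02. Genes of the synthesis pathway and Insig1 made up 10 of the 11 that rose. The other was Ch25h, which entered the test only because 1 array with IgE was above background, so that its call is no support. The 3 that fell were Abca1, Abcg1 and Mylip, which are LXR targets.

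In the mevalonate steps, 3 of 6 genes rose and none fell. Hmgcs1, the cytosolic HMG-CoA synthase that feeds the mevalonate pathway, read 7.72 (B6) and 6.94 (Slpi-/-) in unstimulated BMBs, and 8.02 and 8.51 after IgE and antigen. Its mean rise was 0.93 ± 0.26 (SE, n = 2 pairs, limma adjusted p = 0.0488). Both stimulated arrays were above both unstimulated ones, with the Slpi-/- arrays at both ends. Idi1, the isomerase that interconverts the 5-carbon isoprenoid units, read 6.58 and 6.53 without stimulation and 7.28 and 7.78 with it. The rise of 0.97 ± 0.17 (SE, limma adjusted p = 0.00962) was wider than the gap between genotypes on either side. A second, dimmer Idi1 probe set differed by 1.55. Mvk, mevalonate kinase, went from 6.99 and 6.77 to 7.24 and 7.45, by 0.46 ± 0.12 (SE, limma adjusted p = 0.0403). Of 19 alternative analyses, arrays left out included, Hmgcs1 passed in 8 and Mvk in 9, so that both calls depend on the processing.

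Fdps, which makes farnesyl diphosphate, went from 7.23 and 6.11 to 7.47 and 8.10. Its difference was 1.11 ± 0.36 (SE) and did not pass (limma adjusted p = 0.0745). The change was 0.24 in B6 and 1.98 in Slpi-/- cells. Mvd, the mevalonate decarboxylase, differed by 0.31 and Pmvk, phosphomevalonate kinase, by 0.09, neither past the threshold.

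In the sterol branch, 6 of 11 genes rose and none fell. Sqle, the squalene epoxidase and a rate-limiting enzyme of the branch, read 7.06 and 6.40 in unstimulated BMBs and 7.84 and 8.30 after IgE and antigen. The rise was 1.34 ± 0.24 (SE, limma adjusted p = 0.0106), and the lower stimulated array stood above the higher unstimulated one. Hsd17b7, a 3-ketosteroid reductase of the demethylation steps, had the largest rise of the 28 genes. It read 6.32 and 5.74, close to background in the Slpi-/- cells, and then 7.26 and 7.64, a rise of 1.42 ± 0.24 (SE, limma adjusted p = 0.00875).

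Msmo1, the sterol C4-methyl oxidase, read 8.02 and 7.33 without stimulation and 8.62 and 9.04 with it, a rise of 1.16 ± 0.24 (SE, limma adjusted p = 0.0167). Nsdhl, its partner dehydrogenase, went from 8.19 and 7.24 to 8.67 and 8.78, by 1.00 ± 0.23 (SE, limma adjusted p = 0.0243). Lss, which folds oxidosqualene into lanosterol, went from 8.58 and 8.06 to 9.06 and 9.27, by 0.84 ± 0.17 (SE, limma adjusted p = 0.0168). Msmo1, Nsdhl and Hsd17b7 act in the removal of the C4 methyl groups of lanosterol. Fdft1, the squalene synthase that commits farnesyl diphosphate to sterols, read 8.29 and 7.58 and then 8.59 and 8.76, a rise of 0.74 ± 0.20 (SE, limma adjusted p = 0.0434).

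The other 5 genes of the branch did not pass. Cyp51, the lanosterol 14-demethylase, differed by 0.93 ± 0.32 (SE, limma adjusted p = 0.0854), with 7.05 and 6.14 before and 7.26 and 7.79 after. Ebp, the sterol isomerase, differed by 0.39 and Sc5d, the sterol C5-desaturase, by 0.32. Dhcr7, which makes cholesterol from 7-dehydrocholesterol, differed by 0.12 and Tm7sf2, a C14 reductase, by -0.01. Over the 17 genes of synthesis, both arrays with IgE lay above both without it for 14, as they did for 28.4% of all 13571 genes tested.

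Of the control genes, only Insig1 passed the test. Insig1, itself a target of SREBP and the protein that retains SCAP, read 7.23 and 6.73 in unstimulated BMBs and 8.22 and 8.57 after IgE and antigen. Its rise of 1.42 ± 0.19 (SE, limma adjusted p = 0.00465) was nearly as large as that of Hsd17b7, and the groups did not overlap. Insig2 differed by 0.00 in size, Scap by -0.08, Srebf1 by 0.06 and Srebf2 by 0.24, so that the transcripts of the SREBP factors and of their escort gave no call.

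The LXR targets Abca1, Abcg1 and Mylip went the other way. Lpcat3, outside the list and also known as an LXR target, read 10.18 (B6) and 9.94 (Slpi-/-) without stimulation and 9.72 and 9.94 with it. Abca1, the cholesterol and phospholipid exporter, read 7.61 and 7.60 in unstimulated BMBs and 6.27 and 6.17 after IgE and antigen. The fall of 1.39 on the log2 scale (SE 0.12, limma adjusted p = 0.00143) was made up of -1.33 in B6 and -1.44 in Slpi-/- cells. Abcg1, which exports cholesterol to high-density lipoprotein, read 10.03 and 9.75 and then 9.47 and 9.06. Mylip, the ligase that targets lipoprotein receptors, read 9.44 and 9.50 and then 8.50 and 8.79. Their differences were -0.63 ± 0.10 (SE, limma adjusted p = 0.00631) and -0.82 ± 0.10 (SE, limma adjusted p = 0.00346), and neither gene's groups overlapped. Of the 28 genes, 4 lay lower on both arrays with IgE than on both without it, these 3 and Scap, as did 33.1% of all genes tested. Nr1h3, which encodes LXR alpha, was near background in BMBs (5.39 to 5.66) and differed by -0.05.

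Stard4, a sterol carrier between membranes, differed by 0.59 ± 0.19 (SE) and did not pass (limma adjusted p = 0.0708). Ch25h, which makes 25-hydroxycholesterol, is the eleventh gene called higher, and its call rests on low values. It was below background on 9 arrays (4.17 to 4.80) and reached 6.12 on the Slpi-/- BMB array with IgE and antigen, so no fold is given for it.

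**Figure D2:**
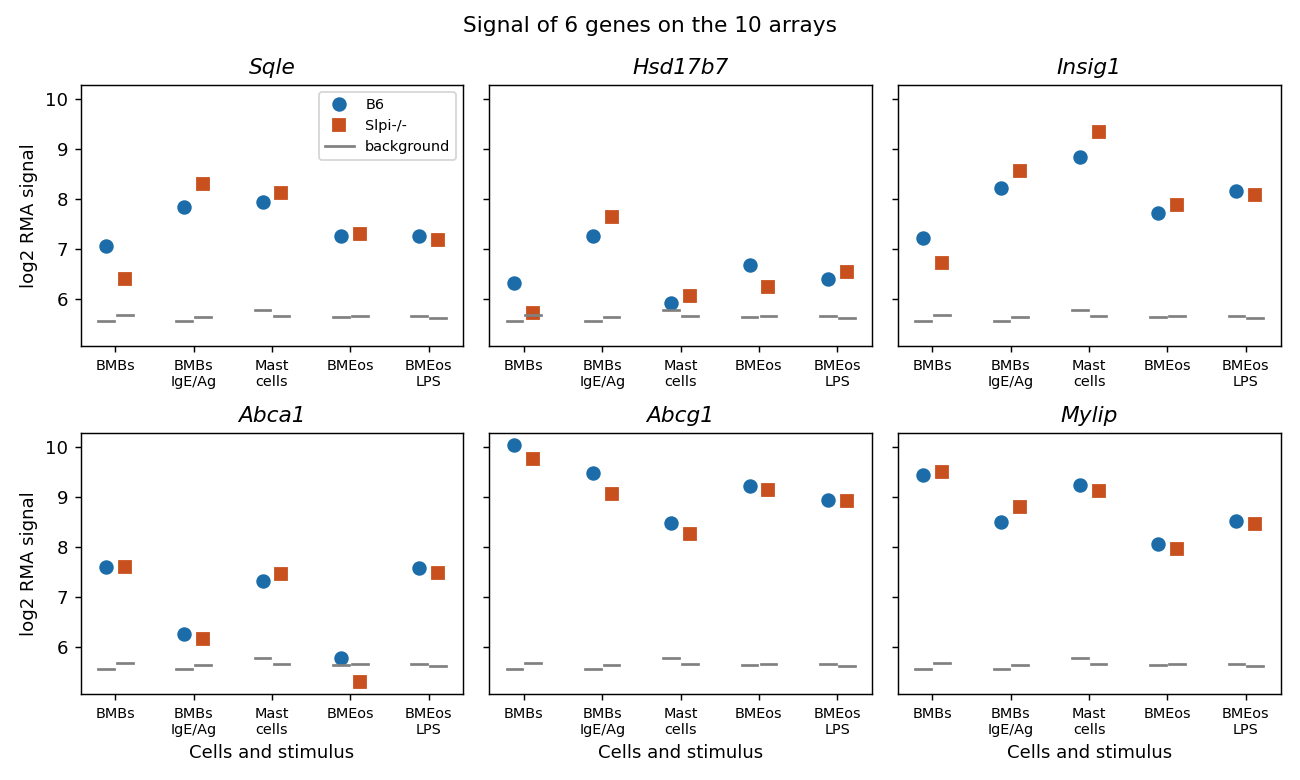
Log2 RMA signal of 6 genes on the 10 arrays by cells and stimulus, with B6 as circles, Slpi-/- as squares and each array's background as a grey line. Sqle, Hsd17b7 and Insig1 are higher, and Abca1, Abcg1 and Mylip lower, on both BMB arrays with IgE and antigen (IgE/Ag) than on both without; Abca1 in BMEos is higher on both arrays with LPS.

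The rise of the synthesis genes was much larger between the Slpi-/- arrays than between the B6 arrays. In B6 BMBs the median difference between the array with IgE and the array without was 0.24 for the mevalonate genes and 0.29 for the sterol branch. In Slpi-/- BMBs these medians were 0.96 and 1.21. Of the 4 BMB arrays, the unstimulated Slpi-/- array was the lowest for 15 of 17 synthesis genes and the Slpi-/- array with IgE was the highest for 16. Of all genes tested, 31.5% had the first and 22.6% the second. Over all genes above background, the median differences with IgE were -0.02 in both genotypes.

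The difference between the genotypes' responses was tested in a comparison added after the values were seen. With limma, 0 of the 28 genes passed, and 0% of all 13571 genes did. At an unadjusted p under 0.05 it was 14 of the 28, against 7.7% of all genes, and with a trend of variance on signal limma called 7. That fit has 1 residual degree of freedom. Ch25h, among the 14, entered the test only through the Slpi-/- array with IgE. The median of this difference was 0.52 for the mevalonate genes, 0.89 for the sterol branch and 0.02 over all genes. For the marker lists it was 1.74 (megakaryocyte), 0.56 (neutrophil), 0.23 (basophil), 0.17 (macrophage and dendritic cell), 0.06 (eosinophil), -0.13 (lymphocyte, 1 gene) and -0.38 (mast cell). A larger response in Slpi-/- BMBs was thus not particular to the 28 genes. Fdps (1.75 ± 0.25, SE) and Hmgcs1 (1.26 ± 0.18, SE) had the lowest adjusted p by limma among the 28, at 0.164 for both. Without either of the Slpi-/- BMB arrays, only Sqle and Insig1 were still called higher, by 0.78 and 1.00, and Abca1 and Mylip lower. Without either of the B6 BMB arrays, 15 genes were called higher and 3 lower. Leaving out an array leaves only the other genotype's pair, and its lone partner is assumed to vary like the other groups.

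**Figure D3:**
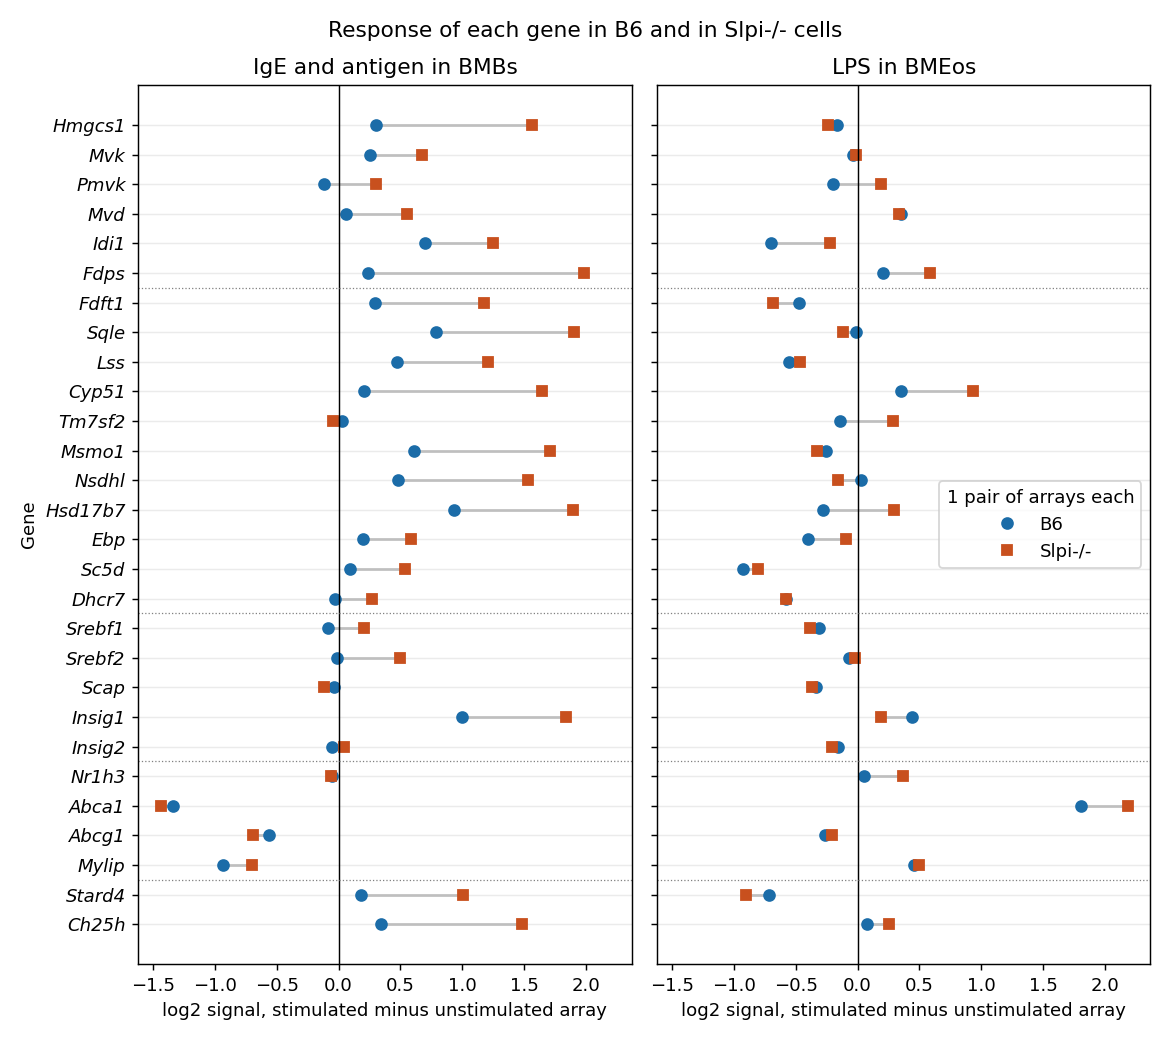
Difference in log2 signal between the stimulated and the unstimulated array for each of the 28 genes, in B6 (circles) and Slpi-/- cells (squares), for BMBs with IgE and antigen and for BMEos with LPS; dotted lines divide the roles. In BMBs the squares of most synthesis genes lie to the right of the circles, with medians of 0.96 and 1.21 against 0.24 and 0.29, while the genotypes lie close together for Abca1, Abcg1 and Mylip.

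Transcripts of the cell type marker lists, those of basophils among them, also moved with IgE. Over all genes tested, 12.2% were higher and 10.6% lower. Of the 37 cell type markers tested, 1 was higher, Adgre1 of the macrophage list (0.68), and 6 were lower. The lower ones were Ly6g of the neutrophil list (-1.48, limma adjusted p = 0.000822), Ccr3 of the eosinophil list, Mrc1 of the macrophage list (-0.87), Kit of the mast cell list (-0.67), and the basophil markers Cebpa (-0.49) and Fcer1a (-0.40). Ccr3 read 6.78 and 7.55 without stimulation and 4.63 and 6.36 with it, above background on 1 of the last 2 arrays. The neutrophil list differed by a median of -0.69, with 6 of 6 markers negative, and its median level was 6.01 and 5.37 without stimulation and 5.18 and 5.27 with it. The median level of the 8 macrophage and dendritic cell markers was 6.29 and 6.04 without stimulation and 5.58 and 5.72 with it, with 6 and 5 and then 4 and 4 of 8 above background. The megakaryocyte list was lowest on the B6 array with IgE, as given above. Adgre1 was not particular to macrophages here, since it read 12.09 on both unstimulated BMEos arrays. What part a changed mix of cells, or a change within the basophils, has in the result was not tested.

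LPS in BMEos gave a different picture. Only 2 of the 28 genes were higher and 4 lower, where 12.7% of all genes tested were higher and 16.2% lower. The IgE and LPS terms share 1 estimate of each gene's spread, to which BMB and BMEos arrays both add. A gene's SE is thus the same for both terms. The counts from the 4 BMEos arrays alone were larger and are given below. The median difference of the 28 genes was -0.07, against 0.02 for all genes. By limma, 0 of the 17 synthesis genes were higher and 2 lower. At an unadjusted p under 0.05 in either direction it was 2 of the 6 mevalonate genes and 4 of the 11 sterol branch genes, against 42.2% of all genes tested.

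Abca1 had the largest change. It read 5.79 and 5.30 in unstimulated BMEos, the second of which was below background, and 7.59 and 7.49 after LPS (limma adjusted p = 0.000161). With the array below background set at its background, it was at least 3.5-fold higher after LPS. The same floor was used for the other folds given as at least some size. Mylip, with 8.06 and 7.96 before and 8.51 and 8.46 after, rose by 0.48 ± 0.10 (SE, limma adjusted p = 0.0168). Both had fallen in BMBs after IgE. Abcg1 stood at 9.21 and 9.13 and then at 8.94 and 8.93, a difference of -0.23 that did not pass, and Nr1h3 differed by 0.21.

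The 4 that fell were Sc5d, Dhcr7, Stard4 and Scap. Sc5d read 8.13 and 8.14 in unstimulated BMEos and 7.21 and 7.33 after LPS, a difference of -0.87 ± 0.13 (SE, limma adjusted p = 0.00443). Dhcr7, the step after Sc5d, went from 6.73 and 6.74 to 6.15 and 6.16, by -0.58 ± 0.11 (SE, limma adjusted p = 0.0103). The genotypes were nearly equal on both sides for both genes.

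Stard4 fell from 7.43 and 7.52 to 6.72 and 6.61, by 0.81 on the log2 scale (SE 0.19, limma adjusted p = 0.0224). Scap went from 9.42 and 9.55 to 9.08 and 9.18, by -0.35 ± 0.09 (SE, limma adjusted p = 0.0326). Among those that did not pass, Fdft1 (-0.58), Lss (-0.51) and Idi1 (-0.46) were lower and Cyp51 (0.64), Fdps (0.39) and Mvd (0.34) higher on average. The direction of Idi1 depended on the probe set: its second probe set read 6.72 and 6.35 in unstimulated BMEos and 7.22 and 6.98 after LPS, a difference of 0.57. Insig1 differed by 0.31 and Srebf1 by -0.35. When any of the 4 BMEos arrays was left out, 1 gene was called higher and 1 lower.

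The sex-linked difference lies in the same pairs as LPS, so that for the LPS comparison the stimulus and the source of the cells cannot be told apart. The X-linked members Nsdhl and Ebp differed by -0.06 and -0.25 and did not pass. Of the 37 cell type markers, 7 were higher and 3 lower with LPS, against 12.7% and 16.2% of all genes tested. Of the macrophage and dendritic cell list 4 of 8 were higher, with Csf1r from 9.43 and 9.62 to 10.44 and 10.27, Adgre1 by 0.45, and C1qa and Zbtb46 both below background on both unstimulated arrays. C1qa entered the test only because both LPS arrays were above background, so that its call is no support. Mrc1 of that list differed by -0.43 and did not pass. Of the megakaryocyte list only Pf4 was higher, from 5.62 and 5.73 to 7.71 and 7.36, while Gp9 (0.44), Itga2b (-0.07) and Ppbp (-0.16) did not pass. Epx of the eosinophil list was higher by 0.64 and Mitf of the mast cell list by 0.94, although a second Mitf probe set differed by -0.38. The lower markers were Ly6g (-0.77) and Retnlg (-0.61) of the neutrophil list and Itga2 (-0.49) of the basophil list. Their part in the result was not tested.

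The test of the difference between both responses, LPS in BMEos minus IgE in BMBs, called 12 of the 28 genes. Abca1 and Mylip (1.30 ± 0.14, SE) were higher, at limma adjusted p = 0.000167 and 0.00222. The difference of Abca1 was at least 3.19 on the log2 scale, since 1 of the unstimulated BMEos arrays was below background. Lower were 10 genes, of which 8 belong to synthesis: Idi1, Fdft1, Sqle, Lss, Msmo1, Hsd17b7, Sc5d and Dhcr7; the others were Insig1 and Stard4. Of all genes tested, 9.71% were higher and 13.3% lower. The largest of the negative differences were Msmo1 (-1.45 ± 0.33, SE), Idi1 (-1.43 ± 0.24, SE) and Sqle (-1.41 ± 0.34, SE). The stimuli also differed in length, at 12 h of antigen and 3 h of LPS, and in cell type, which this contrast does not separate. It does not separate the sex-linked difference of both LPS arrays either. The number of lower genes was 4 or 5 without 1 of the BMEos arrays and 16 without a B6 BMB array.

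The next question was how the genes differed between the cell types without stimulation. The 6 unstimulated arrays were compared with genotype as a block, over 12998 genes, of which 27 are members. Ch25h was not above background there. Insig1 separated the cell types most among the control genes: it read 8.84 and 9.34 in mast cells, 7.72 and 7.89 in BMEos, and 7.23 and 6.73 in BMBs, in an order with no overlap.

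BMBs against mast cells gave 1 higher and 7 lower genes, where 18.8% of all genes were higher and 17.9% lower. The median over the members was -0.13, against -0.01 over all genes. Insig1 was lower in BMBs by -2.11 ± 0.22 (SE, limma adjusted p = 0.000338). Sqle, at 7.93 and 8.11 in mast cells, was lower by -1.29 ± 0.20 (SE, limma adjusted p = 0.0023). The other lower genes were Msmo1 (-0.79), Stard4 (-0.64), Srebf2 (-0.53), Idi1 (-0.48) and Dhcr7 (-0.40).

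Abcg1 was the gene higher in BMBs, at 10.03 and 9.75 against 8.48 and 8.26 in mast cells (1.52 ± 0.10, SE, limma adjusted p = 4.51e-05). Without the unstimulated Slpi-/- BMB array 3 genes were higher and 2 lower, the latter being Insig1 and Sqle. Without the Slpi-/- mast cell array 2 were lower, and without the B6 BMB array 11.

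BMEos differed from mast cells in 17 of the 27 genes, with 8 higher and 9 lower, where 24.3% of all genes were higher and 26.8% lower. The median over the members was 0.02, against -0.04 over all genes. Scap, the SREBP escort, had the largest positive difference, at 9.42 and 9.55 in BMEos against 8.57 and 8.36 in mast cells (1.02 ± 0.12, SE, limma adjusted p = 0.000366). Higher too were Abcg1 (0.80), Fdps (0.75), Mvd (0.65), Idi1 (0.48), Sc5d (0.48), Ebp (0.47) and Insig2 (0.42). The call for Idi1 rests on 1 probe set: the other differed by -0.05, and the mean of both by 0.21 (limma adjusted p = 0.26).

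The lower genes included Abca1, at 5.79 and 5.30 in BMEos, with 1 of the 2 arrays above background, and 7.32 and 7.46 in mast cells. It was at least 3.15-fold lower in BMEos (limma adjusted p = 8.36e-05). Lss was lower, at 7.40 and 7.36 in BMEos against 8.65 and 8.77 in mast cells (-1.33 ± 0.16, SE, limma adjusted p = 0.000428). Insig1 (-1.29), Mylip (-1.17), Sqle (-0.73), Mvk (-0.55), Dhcr7 (-0.51), Tm7sf2 (-0.44) and Srebf1 (-0.37) were lower as well. The enzymes were thus split, with 5 synthesis genes higher and 5 lower. The number of higher genes was 3 without the Slpi-/- BMEos array and 4 without the B6 mast cell array.

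BMEos against BMBs gave 7 higher and 4 lower genes, against 18.6% and 21.2% of all genes. With quantile normalization it was 12 higher and 4 lower. The median over the members was 0.30, and over all genes -0.03. Scap (0.99 ± 0.12, SE, limma adjusted p = 0.000682) and Idi1 (0.95 ± 0.15, SE, limma adjusted p = 0.00213) were the largest rises, ahead of Insig1 (0.83), Fdft1 (0.78), Hmgcs1 (0.73), Stard4 (0.66) and Ebp (0.50).

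Abca1 was at least 3.66-fold lower (limma adjusted p = 8.96e-05), with 1 of the 2 BMEos arrays above background. Mylip (-1.46 ± 0.10, SE, limma adjusted p = 5.62e-05), Lss (-0.94) and Abcg1 (-0.72) were lower as well. Without the unstimulated Slpi-/- BMB array, 2 genes were higher, Scap and Idi1, and 6 lower. The number of higher genes was also 2 without the Slpi-/- BMEos array, 4 without the B6 BMEos array and 14 without the B6 BMB array. The comparisons of cell types share their arrays, so their counts are not independent.

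Genotype was compared over all 5 settings. With limma, 0 of the 28 genes passed, and 0% of the 13571 genes did. At an unadjusted p under 0.05 it was 2 of the 28, Abcg1 (-0.20 ± 0.07, SE) and Ch25h, which was above background on 1 array, against 5.32% of all genes. Abcg1 was lower in Slpi-/- cells in all 5 settings, by -0.02 to -0.42, though the limma adjusted p was 0.914.

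The settings differed among themselves. Of the 28 genes, 23 were lower on the Slpi-/- array in unstimulated BMBs (median -0.32) and 25 were higher after IgE and antigen (median 0.21). Of all 13571 genes, 54.8% were lower in the first setting (median -0.02) and 47.8% higher in the second (median -0.01). In mast cells the median was 0.07, in BMEos -0.05 and in BMEos with LPS 0.00. For the 17 synthesis genes alone, 16 were lower in unstimulated BMBs (median -0.52) and 17 of 17 higher after IgE (median 0.31). The most negative value was that of Fdps, -1.12, followed by Nsdhl (-0.95) and Cyp51 (-0.91). Each of these values is the difference between 1 array and another, with no replicate check.

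**Figure D4:**
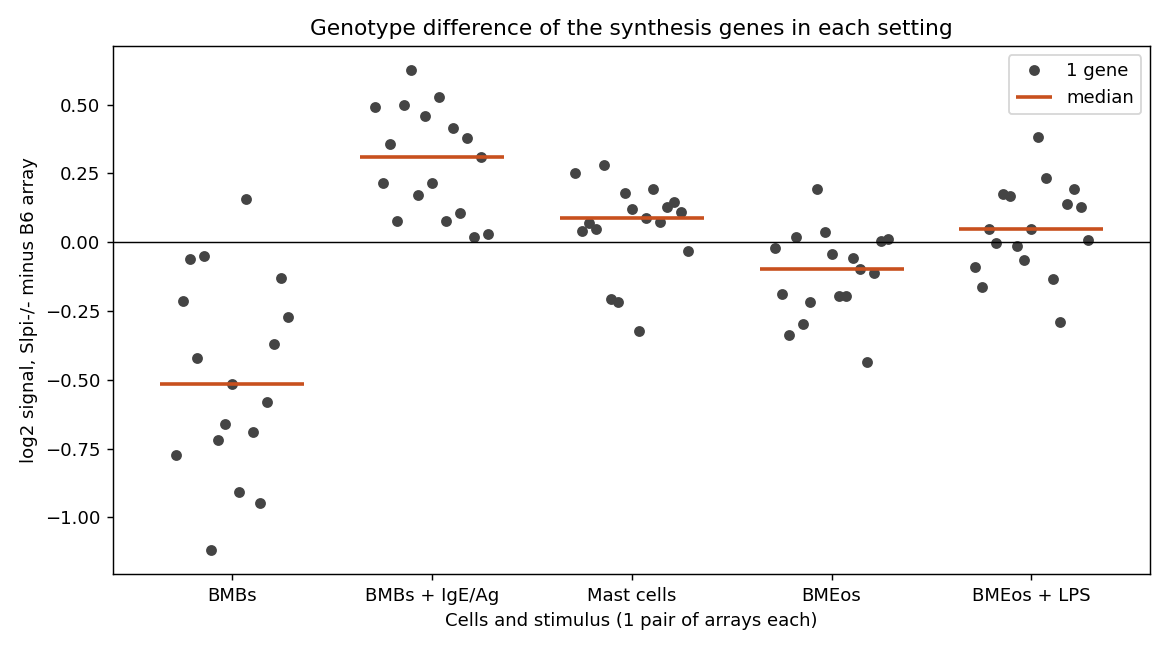
Difference in log2 signal between the Slpi-/- and the B6 array for each of the 17 synthesis genes (points) in the 5 settings, with the median as a line. The points lie mostly below 0 in unstimulated BMBs (median -0.52), above 0 in BMBs with IgE and antigen (IgE/Ag, median 0.31) and around 0 in mast cells and BMEos.

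Whether the genotype difference in BMEos was unlike that in BMBs was tested directly. With limma, 0 of the 28 genes passed, and 0 of the 28 had an unadjusted p under 0.05. Of all genes 1 passed, Slpi itself, which is 0.00737%.

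Genes of neighbouring pathways were described in the same way. Of 14 genes of fatty acid synthesis, which SREBP factors also control, 2 rose and 3 fell after IgE and antigen. Over all genes tested, 12.2% rose and 10.6% fell. Fasn, the fatty acid synthase, went from 9.19 and 8.42 to 9.89 and 9.93 (1.10, limma adjusted p = 0.00853) and Acly, which supplies cytosolic acetyl-CoA, rose by 0.38. Acss2, an acetyl-CoA synthetase, went from 9.79 and 9.91 to 8.32 and 8.47 (-1.45, limma adjusted p = 0.000872), and Fads1, a fatty acid desaturase, fell by 1.17 on the log2 scale. The fatty acid genes thus did not all follow the sterol genes: their median was -0.13.

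Between unstimulated cell types, 1 of the 14 was higher in BMBs than in mast cells, Acss2 (0.35), and 4 were lower, led by Fads2 (-1.64) and Fads1 (-0.95). Over all genes, 18.8% were higher and 17.9% lower. In BMEos, 11 of the 14 were lower than in mast cells and 10 lower than in BMBs, with 1 higher each time, Acly (1.14 and 0.84). Over all genes, 26.8% and 21.2% were lower, and 24.3% and 18.6% higher. Fads1 read 6.87 and 6.86 in BMEos, 11.47 and 11.60 in mast cells and 10.60 and 10.57 in BMBs. Fads2 was lower in BMEos than in mast cells by -4.01. Scd1, the stearoyl-CoA desaturase, read 4.68 and 4.17 in BMEos, below background on both arrays, and 7.96 and 6.99 in BMBs, so that it was at least 3.5-fold lower in BMEos. With LPS, 3 of the 14 fell and none rose, and the largest falls were Lpin1 (-0.85) and Acss2 (-0.78). Over all genes tested, 16.2% fell and 12.7% rose. The difference between both responses, LPS minus IgE, was positive for Fads1 (0.96) and Acss2 (0.67) and negative for Acly (-1.06).

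Of 10 genes in the isoprenoid branches that leave the pathway before squalene, 2 rose with IgE and none fell: Nus1, a subunit of the dolichol-forming prenyltransferase (0.93, limma adjusted p = 0.0104), and Rabggtb, a subunit of the enzyme that prenylates Rab proteins (0.46, limma adjusted p = 0.018). Over all genes tested, 12.2% rose and 10.6% fell. With LPS, Fnta (0.33) rose and Rabggta (-0.65) and Rabggtb (-0.63) fell, where 12.7% of all genes tested rose and 16.2% fell. Between the cell types, 4 of 10 were lower in BMBs and 6 of 10 lower in BMEos than in mast cells, with 1 higher in each, Nus1 (0.44) and Rabggtb (0.48). Over all genes, 17.9% and 26.8% were lower, and 18.8% and 24.3% higher. Pdss2, which makes the side chain of coenzyme Q, was below background in BMBs and BMEos, at least 1.56-fold and 1.52-fold lower than in mast cells. It entered the test of unstimulated cells only because the mast cell arrays were above background, so that its calls, counted above, are no support. Pggt1b was lower in BMBs by -0.45, and Fntb, below background in BMEos, was at least 1.36-fold lower there. BMEos against BMBs called Rabggtb higher (0.53) and Fnta lower (-0.34), against 18.6% and 21.2% of all genes. LPS minus IgE was positive for Fnta (0.50) and negative for Rabggtb (-1.09) and Nus1 (-1.04).

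Of 25 further genes of sterol handling, 6 rose and 4 fell with IgE, where 12.2% of all genes tested rose and 10.6% fell. Tmem97, a sterol-responsive membrane protein, read 8.72 and 7.89 before and 9.47 and 9.42 after (1.14, limma adjusted p = 0.0111), and Lipa, the lysosomal cholesteryl ester hydrolase, rose by 0.65. Rxra, the partner of LXR, fell by 0.77 and Npc2, which binds cholesterol in lysosomes, by 0.75. With LPS, 4 rose and 10 fell, where 12.7% of all genes tested rose and 16.2% fell. The largest rises were Stard3, a late endosomal sterol carrier (0.55, limma adjusted p = 0.00846), and Syvn1, a ubiquitin ligase of the endoplasmic reticulum (0.44, limma adjusted p = 0.04). The largest falls were Nceh1, a cholesteryl ester hydrolase (-1.17, limma adjusted p = 0.000579), and Rxra (-0.89, limma adjusted p = 0.00142). LPS minus IgE was positive for Stard3 (0.76) and Lrp1 (0.60) and negative for Tmem97 (-1.88) and for Vldlr, which was below background on both LPS arrays. Rxra was also higher in BMEos than in mast cells by 1.83 and than in BMBs by 1.37. Abca2, a lipid transporter of endosomes, read 7.46 and 7.30 in BMEos, 8.71 and 8.61 in mast cells and 9.53 and 9.30 in BMBs. Lpcat3, a phospholipid acyltransferase known as an LXR target, was higher in BMEos than in BMBs by 1.33 (limma adjusted p = 0.000201). Of the 24 genes tested in unstimulated cells, 11 were higher and 5 lower in BMBs than in mast cells, 9 higher and 4 lower in BMEos than in mast cells, and 6 higher and 5 lower in BMEos than in BMBs. In the same order, the shares of all genes were 18.8% and 17.9%, 24.3% and 26.8%, and 18.6% and 21.2%. The largest differences not yet given were Lipa (1.08), Lrp1 (0.92), Erlin1 (-0.56) and Acat1 (-0.56) for BMBs against mast cells, Gramd1b (1.43) and Lrp8 (-0.88) for BMEos against mast cells, and Scarb1 (-0.94) for BMEos against BMBs.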

How the data were processed

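RNA of 10 conditions was measured on Affymetrix Mouse Gene 1.0 ST arrays, 1 array each. The authors ran RMA from the affy package of Bioconductor on the probe signals and took log2 values, which were used as deposited. RMA sets the probe signals of all arrays to 1 distribution, so a change shared by most genes would not show. Of 34760 probe sets, 21640 carry 1 symbol, 1321 several and 11799 none, by the platform annotation with symbols updated through the gene ID (21553 matched) to RefSeq GRCm38.p6. A gene was measured by the probe set with the highest mean. Genes above background on at least 1 array were tested. The members and gene lists were chosen with earlier results of these data known.

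Tests used limma 3.58.1 in R 4.3.3 (lmFit, eBayes, Benjamini-Hochberg over all genes tested, threshold 0.05). Stimulation was tested in a fit of 10 arrays with 1 mean per cell type and genotype plus an IgE and an LPS term (2 residual degrees of freedom), cell types in a fit of the 6 unstimulated arrays with genotype as a block (2), and genotype with 5 blocks for the settings (4). The methods name a paired test only. The limma code was also tested on simulated counterparts of these arrays. The number of arrays limits the precision.

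Every member was to be named, and of the neighbouring lists the 2 largest rises and 2 largest falls among genes past the threshold in a comparison. Where an array was below background, a fold was taken with that array at its background and given as at least that size. Alternatives were centring, quantile normalization, averaging over a gene's probe sets, no signal filter, the 99th percentile as background, a variance trend, the methods' t-test, other models and each array left out. The comparison of the IgE response between genotypes, and the reading without the unstimulated Slpi-/- BMB array, were chosen after seeing the data. Python 3.11.15 (numpy 2.4.6, pandas 2.3.3, matplotlib 3.10.9) made tables and figures.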

Additional observations from a re-analysis of the deposited data

How the results depend on the processing

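No member called in a comparison reversed its direction under any alternative. The methods' t-test on 2 pairs, with 1 degree of freedom, called 0 of 56 member results after adjustment, and it also gave 0 members higher and 0 lower in each comparison of stimulation or cell type. In the other alternatives that kept all arrays, 490 of 518 member results stayed past the threshold.

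For IgE and antigen, 7 members were higher with no filter on signal and 7 from the 4 BMB arrays alone. LPS gave 7 lower with a variance trend, and 4 higher and 8 lower from the 4 BMEos arrays alone. BMBs against mast cells gave 4 lower with no filter, and 2 higher with the 99th percentile as background, with a variance trend or without the genotype block. BMEos against BMBs gave 12 higher with quantile normalization and 11 with a variance trend. The comparison of the IgE response between genotypes gave 7 higher with a variance trend.

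Leaving out 1 array in turn kept 415 of 535 member results past the threshold. The counts ranged from 2 to 15 higher and 2 to 3 lower for IgE, from 1 to 4 higher and 1 to 7 lower for LPS, from 4 to 16 lower for LPS minus IgE, from 1 to 3 higher and 2 to 11 lower for BMBs against mast cells, from 3 to 10 higher and 6 to 10 lower for BMEos against mast cells, and from 2 to 14 higher and 4 to 6 lower for BMEos against BMBs. In the stimulation fit the mast cell arrays add nothing to a gene's own spread. Without a BMB array that spread came from the BMEos arrays alone, and without a BMEos array from the BMB arrays alone. Whether this accounts for the ranges was not tested. No paired analysis by replicate number was possible because each condition has 1 array. Pmvk, Nr1h3, Ch25h and Tm7sf2 were near or below background, as was Hsd17b7 in unstimulated Slpi-/- BMBs, which limits what their values can show.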
